A study of Homo sapiens with 45 samples.

Results

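The genes HMGCS1, MSMO1, SQLE, IDI1, INSIG1, NSDHL, FDFT1 and FDPS belong to cholesterol synthesis and its feedback control. These 8 were taken by symbol from a table of 60676 genes and followed through all 15 groups of an RNA-seq experiment in HAP1 cells. Of the 8, 7 encode enzymes and INSIG1 encodes a regulator. No uptake gene is among them. HAP1 is a near-haploid human line derived from the chronic myeloid leukaemia line KBM-7.

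Cells were treated for 4 h with halofuginone (HF) at 25 nM, which blocks the charging of proline tRNA, or with azacytidine (azaC) at 5 uM, which resembles cytidine and enters RNA and DNA. RNF25 KO, GCN2 KO and AAVS1 cells had HF, azaC and untreated groups, while eS31 K113R, ZNF598 KO and RNF25 GCN2 DKO cells had azaC and untreated groups. The ligases RNF25 and ZNF598 attach ubiquitin when ribosomes stall or collide, GCN2 is the eIF2α kinase of the amino acid response (gene EIF2AK4), and eS31 is the ribosomal protein encoded by RPS27A, here with a lysine replaced by arginine. AAVS1 is a safe-harbour locus, and cells of that genotype are the comparison for the other lines. Each group had 3 libraries. The labels call the libraries biological replicates, so the p-values measure the spread between these libraries. Whether a line is 1 clone or a pool, and how it was edited, is not given in the sources used here. The comparisons address how the genes respond to each drug, and whether their level or response differs between the lines. No label separates lines within a genotype, so effects of an edit cannot be told apart from other differences between lines.

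Cholesterol is made from acetyl-CoA by way of mevalonate, isoprenoid pyrophosphates, squalene and a series of sterols. When membranes of the endoplasmic reticulum are low in sterol, SCAP carries the transcription factor SREBP2 to the Golgi, where it is cut and released to switch on the synthesis genes. INSIG1 holds SCAP back when sterols are plentiful and is itself a target of SREBP2, which closes the loop. Fast-growing cultured cells depend on this pathway for membranes and for lipid-modified proteins.

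Library totals ran from 1135498 to 2478875 counts, with a median of 1541554, which is shallow. Members were nevertheless counted in every library, from INSIG1 with 12 to 130 counts to FDFT1 with 265 to 883 counts. All 8 members passed the filter on low counts, and 11078 genes in all were tested. Levels are given as CPM, counts relative to library sizes scaled by the TMM method. EIF2AK4 averaged 21.0 ± 1.94 CPM in untreated GCN2 KO cells and 43.1 ± 4.34 CPM in untreated AAVS1 cells (SD, n = 3, here without TMM scaling), but 39.9 ± 5.37 CPM in untreated RNF25 GCN2 DKO cells, so its level did not mark that line. ZNF598 averaged 37.0 ± 4.50 CPM in untreated ZNF598 KO cells and 61.0 ± 9.34 CPM in untreated AAVS1 cells. RNF25 had 0 to 7 counts in every library and checks no label, nor can a single-residue change in RPS27A be read from counts. Of the blood-cell markers, CD33, GATA1, MPO, HBG1 and ITGAM had 0 counts throughout, while TAL1 had 18 to 74 counts. The 12 markers summed to 20 to 83 counts per library, so the KBM-7 origin is not visible in myeloid markers.

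CCAAT boxes are bound by the factor NF-Y, and RefSeq windows of the members were searched for them. The 250 bases before the RefSeq transcript start (assembly GRCh38.p14) are shown for HMGCS1, MSMO1, INSIG1 and NSDHL, which were lower with HF, and for FDPS, which did not pass. Each is written 5′ to 3′ on the strand of the gene, with the letters CCAAT or their reverse complement ATTGG in capitals. The windows are chr5:43313413-43313662 on the minus strand for HMGCS1, chr4:165327419-165327668 on the plus strand for MSMO1, chr7:155297628-155297877 on the plus strand for INSIG1, chrX:152830813-152831062 on the plus strand for NSDHL and chr1:155308616-155308865 on the plus strand for FDPS.
HMGCS1: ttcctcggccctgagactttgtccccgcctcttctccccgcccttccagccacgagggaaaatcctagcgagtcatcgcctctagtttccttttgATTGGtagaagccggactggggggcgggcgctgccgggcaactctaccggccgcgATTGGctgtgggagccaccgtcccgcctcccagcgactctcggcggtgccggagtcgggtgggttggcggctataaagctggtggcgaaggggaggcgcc
MSMO1: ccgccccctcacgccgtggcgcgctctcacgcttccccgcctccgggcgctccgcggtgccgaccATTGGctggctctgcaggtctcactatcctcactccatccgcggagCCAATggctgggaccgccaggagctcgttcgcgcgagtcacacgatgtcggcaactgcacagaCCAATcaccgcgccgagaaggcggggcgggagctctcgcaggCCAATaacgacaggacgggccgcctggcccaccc
INSIG1: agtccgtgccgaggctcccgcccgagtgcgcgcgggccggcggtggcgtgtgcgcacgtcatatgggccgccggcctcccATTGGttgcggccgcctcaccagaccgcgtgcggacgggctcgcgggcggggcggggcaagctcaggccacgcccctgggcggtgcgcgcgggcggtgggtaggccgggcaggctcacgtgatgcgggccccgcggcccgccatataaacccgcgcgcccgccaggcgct
NSDHL: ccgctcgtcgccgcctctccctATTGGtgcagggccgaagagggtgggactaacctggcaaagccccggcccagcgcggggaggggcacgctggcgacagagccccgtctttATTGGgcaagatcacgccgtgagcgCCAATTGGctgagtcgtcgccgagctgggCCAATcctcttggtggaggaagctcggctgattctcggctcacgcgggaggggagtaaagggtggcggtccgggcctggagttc
FDPS: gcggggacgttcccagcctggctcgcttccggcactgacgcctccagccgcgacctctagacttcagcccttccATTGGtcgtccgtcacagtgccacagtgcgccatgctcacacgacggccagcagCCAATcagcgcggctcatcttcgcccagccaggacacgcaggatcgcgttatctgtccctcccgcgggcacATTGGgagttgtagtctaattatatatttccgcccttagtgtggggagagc
The windows held 2 such boxes in HMGCS1, 4 in MSMO1, 1 in INSIG1, 5 in NSDHL and 3 in FDPS, where CCAATTGG counts as 2 overlapping matches. The windows searched were 9 for 6 members, since HMGCS1 has 2 starts and IDI1 has 3. None was at hand for SQLE or FDFT1, neither of which passed with HF, so the shares below leave these 2 members out. The window of the other HMGCS1 start (chr5:43313182-43313431, minus strand) held 0 boxes, and those of IDI1 held 3, 2 and 0. CCAAT on either strand was in 7 of the 9 (77.8%), against 32% of 35116 RefSeq windows of the same length. At least 2 boxes were in 66.7% of the 9, against 9.53% of all windows. The SP1 box GGGCGG on either strand was in 8 of the 9 (88.9%), against 42.6% of all. The sterol regulatory element searched as TCACNCCAC on both strands was in 0 of the 9, against 0.883% of all. With so low a share over all windows, 0 of 9 does not set the members apart. FDPS, which did not pass with HF, held more boxes than the windows shown for HMGCS1 and INSIG1, so the number of boxes did not separate these 5 by response. A match is a description of the letters, not a measured binding site.

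With HF, HMGCS1 was lower in RNF25 KO and AAVS1 cells and did not pass in GCN2 KO cells. HMGCS1 encodes the HMG-CoA synthase that joins acetyl-CoA to acetoacetyl-CoA (chr5:43289395-43313512, minus strand, GENCODE 29 on GRCh38, as for all gene positions here). It had 78.4, 95.8 and 129 CPM in HF-treated RNF25 KO cells, against 194, 162 and 282 CPM in untreated RNF25 KO cells. In AAVS1 cells it had 152, 155 and 173 CPM with HF, against 334, 359.9 and 304 CPM untreated. GCN2 KO cells had 144, 166 and 163 CPM with HF, against 241, 209 and 244 CPM untreated. In each of these 3 lines every HF library lay below every untreated library of its line. By edgeR's quasi-likelihood test with Benjamini-Hochberg adjustment over all genes, the log2 change was −1.07 ± 0.20 in RNF25 KO (SE, adjusted p = 0.000543) and −1.06 ± 0.19 in AAVS1 (adjusted p = 0.000433), a fall to 0.475 and 0.481 of the untreated level. In GCN2 KO the log2 difference was −0.55 ± 0.20 and did not pass (adjusted p = 0.21). Averaged over the 3 lines it was −0.89 ± 0.11 (adjusted p = 1.55e-07). These are bulk libraries, in which fewer cells of a type and less RNA per cell cannot be told apart.

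Further along the isoprenoid stretch the values were less uniform. IDI1 (chr10:1039152-1049170, minus strand), which isomerises isopentenyl pyrophosphate, had 26.3, 30.1 and 34.9 CPM in HF-treated RNF25 KO cells, against 53.6, 50.0 and 84.2 CPM untreated. The groups did not overlap, yet the log2 difference of −1.05 ± 0.31 did not pass (adjusted p = 0.0655). In AAVS1 cells IDI1 had 39.3, 64.2 and 32.7 CPM with HF and 63.3, 65.9 and 61.2 CPM untreated, and in GCN2 KO cells 33.1, 41.5 and 65.2 CPM with HF and 46.9, 41.6 and 64.9 CPM untreated. The HF and untreated libraries overlapped in both lines. IDI1 over the 3 lines fell by 0.55 ± 0.17 on the log2 scale (adjusted p = 0.0402). That call was lost in 12 of 24 alternatives, each with 1 library left out. With 1 library left out it held without untreated RNF25 KO replicate 1 or 2, untreated GCN2 KO replicate 2, AAVS1 HF replicate 2, RNF25 KO HF replicate 3 or GCN2 KO HF replicate 3, and it held in the other 6 alternatives, which keep all libraries. Adjusted p reached 0.125 without untreated RNF25 KO replicate 3 (log2 −0.46).

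FDPS (chr1:155308748-155320666, plus strand), the farnesyl pyrophosphate synthase that feeds squalene and protein prenylation alike, did not pass with HF in any line. It had 178, 176 and 222.8 CPM in HF-treated RNF25 KO cells, against 257, 183 and 287 CPM untreated. In AAVS1 cells it had 164, 198 and 225 CPM with HF, against 228, 63.0 and 265 CPM untreated. The library at 63.0 CPM, untreated AAVS1 replicate 2, held the lowest FDPS level of all 45. With it the log2 difference in AAVS1 was 0.09 ± 0.29, and without it −0.33 (adjusted p = 0.944 and 0.697). Over the 3 lines the difference was −0.10 ± 0.17, with a 95% interval of −0.44 to 0.24.

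At the squalene step neither member passed with HF. FDFT1 (squalene synthase, chr8:11795573-11839309, plus strand) had log2 differences of −0.15 ± 0.16 in RNF25 KO, −0.13 ± 0.16 in GCN2 KO and −0.28 ± 0.16 in AAVS1. SQLE (chr8:124998497-125022283, plus strand), the squalene epoxidase and a further control point of the pathway, had 80.1, 107 and 82.7 CPM in HF-treated AAVS1 cells, against 151, 131 and 112 CPM untreated. Those groups did not overlap, but the log2 difference of −0.54 ± 0.20 did not pass (adjusted p = 0.225). In GCN2 KO cells SQLE had 114, 132 and 98.8 CPM with HF and 102, 116 and 125 CPM untreated, a difference of 0.01 ± 0.20. In RNF25 KO cells it had 70.2, 88.3 and 73.6 CPM with HF and 80.0, 92.7 and 119 CPM untreated, a difference of −0.33 ± 0.21. Over the 3 lines SQLE differed by −0.29 ± 0.12 (adjusted p = 0.143) and FDFT1 by −0.19 ± 0.09 (adjusted p = 0.251).

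Beyond lanosterol both members were lower with HF. MSMO1 (chr4:165327623-165343160, plus strand), the methylsterol monooxygenase that starts removal of the C4 methyl groups, had 28.1, 22.5 and 39.4 CPM in HF-treated RNF25 KO cells, against 73.6, 42.6 and 115 CPM untreated. In AAVS1 cells it had 27.7, 16.4 and 31.6 CPM with HF, against 92.4, 74.4 and 101 CPM untreated. GCN2 KO cells had 33.1, 29.9 and 44.5 CPM with HF, against 57.0, 57.0 and 71.9 CPM untreated. Within each line no HF library reached the untreated range. MSMO1 fell to 0.286 of the untreated level in AAVS1 (log2 −1.81 ± 0.32, adjusted p = 0.00022) and to 0.39 in RNF25 KO (−1.36 ± 0.31, adjusted p = 0.00875). In GCN2 KO the difference was −0.78 ± 0.31 (adjusted p = 0.312), and over the 3 lines MSMO1 fell by 1.32 ± 0.18 (adjusted p = 1.11e-06).

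NSDHL, the X-linked dehydrogenase that acts next on the C4 carbon (chrX:152830967-152869729, plus strand), had 42.1, 45.1 and 61.3 CPM in HF-treated RNF25 KO cells, against 78.4, 101 and 96.6 CPM untreated. In GCN2 KO cells it had 48.6, 48.8 and 41.5 CPM with HF, against 75.8, 74.1 and 65.7 CPM untreated. In AAVS1 cells it had 63.2, 42.8 and 67.3 CPM with HF, against 61.6, 90.7 and 109.7 CPM untreated. The groups were separate in RNF25 KO and GCN2 KO cells and overlapped in AAVS1 cells. NSDHL fell by 0.90 ± 0.20 on the log2 scale in RNF25 KO (adjusted p = 0.00596). The differences of −0.64 ± 0.20 in GCN2 KO and −0.60 ± 0.20 in AAVS1 did not pass (adjusted p = 0.139 and 0.127). NSDHL over the 3 lines fell by 0.71 ± 0.12 (adjusted p = 2.53e-05).

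INSIG1 (chr7:155297776-155310235, plus strand), the regulator among the members, was lower as well. It had 7.02, 14.4 and 23.2 CPM in HF-treated RNF25 KO cells, against 28.0, 29.7 and 76.2 CPM untreated, with no overlap. In AAVS1 cells it had 17.7, 24.6 and 12.8 CPM with HF, against 53.0, 35.7 and 52.3 CPM untreated, again with no overlap. In GCN2 KO cells it had 23.2, 28.1 and 31.6 CPM with HF, against 29.6, 21.7 and 70.4 CPM untreated, and these overlapped. INSIG1 fell by 1.60 ± 0.44 in RNF25 KO (adjusted p = 0.0469, and 0.0958 with limma-voom). In AAVS1 the difference was −1.35 ± 0.43 (adjusted p = 0.114), and with the replicate number as a block over all 45 libraries it was −1.34 (adjusted p = 0.0292). INSIG1 over the 3 lines fell by 1.17 ± 0.25 (adjusted p = 0.00127). Every HF library of the 3 lines had less INSIG1 than the median untreated library at 35.7 CPM, the highest HF library being at 31.6 CPM.

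**Figure D1:**
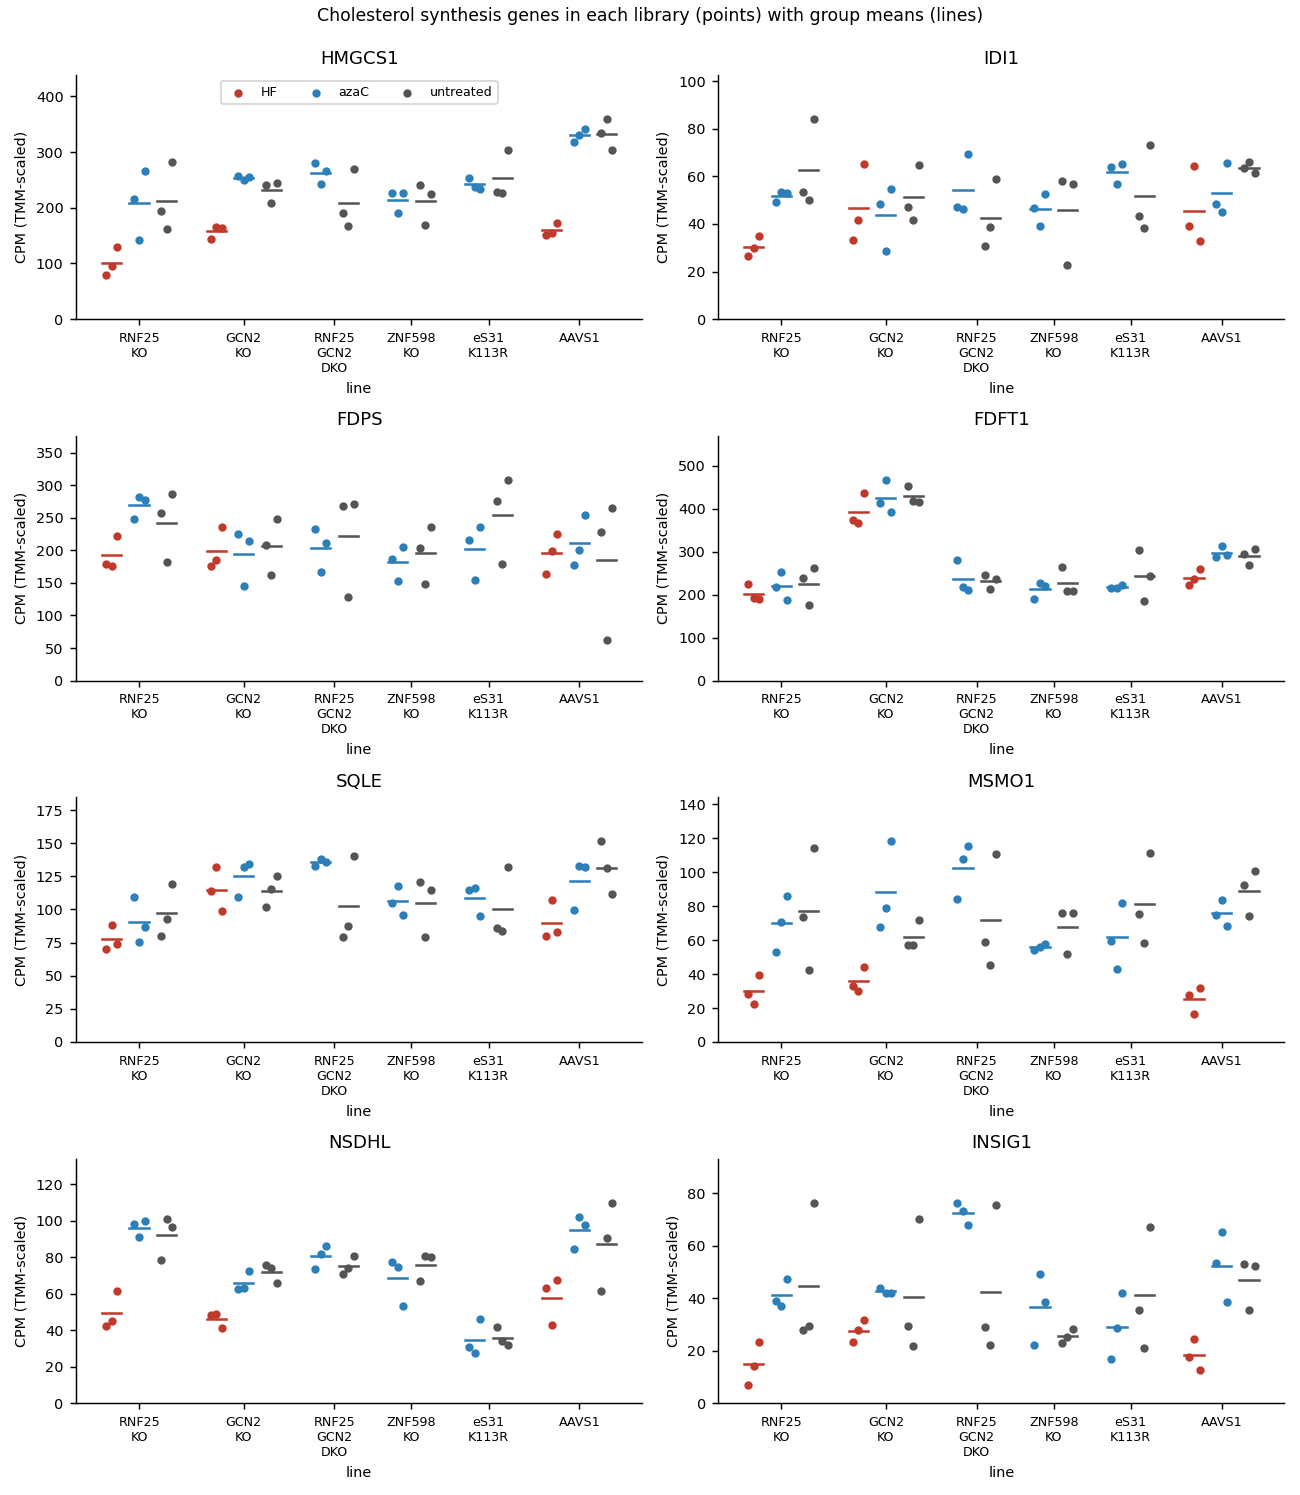
Level of each of the 8 genes in every library, in TMM-scaled CPM, with 1 panel per gene, the 6 lines along the x axis, treatments by colour and a line at the group mean of 3 libraries. HMGCS1 and MSMO1 sit lowest in the HF groups, where MSMO1 spans 16.4 to 44.5 CPM over the 9 HF libraries.

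Counted over the 8 members, 4 were lower with HF in RNF25 KO cells (HMGCS1, MSMO1, INSIG1 and NSDHL), where 0.506% of all tested genes were. In AAVS1 cells 2 were lower (HMGCS1 and MSMO1), against 0.487% of all tested genes. With the replicate number as a block INSIG1 was lower there as well, in a fit whose share of all genes was not counted. In GCN2 KO cells 0 passed, against 0.506% of all tested genes lower. At an unadjusted p under 0.05, 3 members passed there, as did 1087 of all 11078 tested genes in either direction. Over the 3 lines 5 were lower, against 3.07% of all tested genes. The median member changed by −0.97 in RNF25 KO, −0.34 in GCN2 KO, −0.57 in AAVS1 and −0.63 over the 3 lines on the log2 scale, where the median of all tested genes was between 0.00 and 0.01. No member was higher with HF in any line. In RNF25 KO the count rested on single libraries. It was 1 of 8 without HF replicate 1 or without HF replicate 2, and 2 of 8 without untreated replicate 3. MSMO1 then had adjusted p of 0.0705, 0.106 and 0.212, INSIG1 0.337, 0.167 and 0.515, and NSDHL 0.0823, 0.0638 and 0.038, while HMGCS1 passed each time. The share of counts from mitochondrial genes also moved with HF, at 5.17 to 7.30% in the 9 HF libraries and 7.08 to 8.73% in the 9 untreated ones. The 9 azaC libraries of these lines ran from 3.14 to 8.34%. The median share was 6.09% with HF, 6.62% with azaC and 7.85% untreated. The part of this share in the HF changes was not tested.

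Whether the response to HF differed between lines was tested directly. Of the 8 members 0 passed for RNF25 KO minus AAVS1, where 0% of all genes did, and 0 passed for GCN2 KO minus AAVS1, where 0.334% did. For GCN2 KO minus AAVS1 the difference in log2 change was 1.03 ± 0.45 for MSMO1 (95% interval 0.13 to 1.92, adjusted p = 0.62), 0.80 ± 0.61 for INSIG1, 0.55 ± 0.29 for SQLE and 0.50 ± 0.27 for HMGCS1. At an unadjusted p under 0.05 only MSMO1 passed in that comparison, where 798 of all 11078 tested genes did. No member did for RNF25 KO minus AAVS1, where 292 genes did. The smaller changes in GCN2 KO cells were therefore not distinguished from those in AAVS1 cells at this depth. For HMGCS1 in RNF25 KO minus AAVS1 the difference was −0.02 ± 0.27, with a 95% interval of −0.57 to 0.53.

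**Figure D2:**
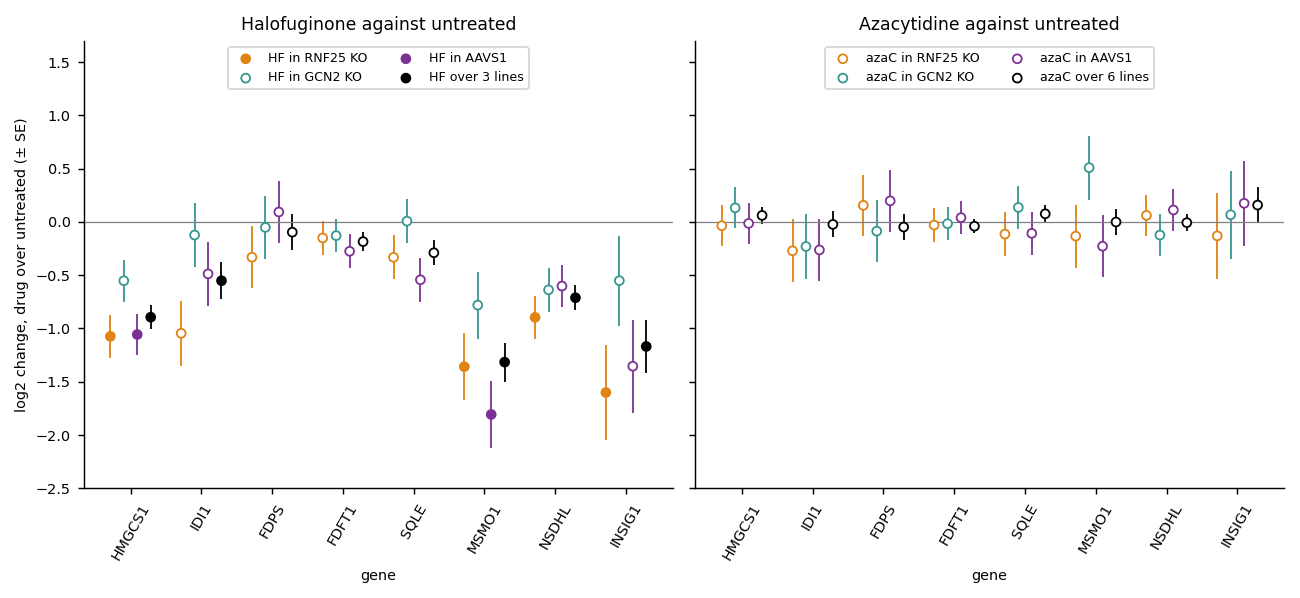
Log2 change of each gene with HF and with azaC against untreated cells, in RNF25 KO, GCN2 KO and AAVS1 cells and averaged over lines, with bars for 1 SE and filled points for adjusted p under 0.05. HF values of the 8 members run from −1.81 (MSMO1 in AAVS1 cells) to 0.09 (FDPS in AAVS1 cells), and no azaC point is filled.

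Of 72 listed genes of the pathway other than the members, 65 could be tested. ABCA1, the cholesterol exporter driven by the sterol-sensing LXR receptors, was the 1 listed gene that rose with HF, by 1.16 ± 0.37 over the 3 lines (adjusted p = 0.0414). Its levels were low, with 6.44 to 16.9 CPM in the 9 HF libraries and 0 to 10.2 CPM in the 9 untreated libraries, and its call was lost in 14 of 24 alternatives, with adjusted p up to 0.0874. Leaving out a single library ended it except for untreated AAVS1 replicate 3, untreated GCN2 KO replicate 3, AAVS1 HF replicate 1, RNF25 KO HF replicate 1 and GCN2 KO HF replicate 2. SREBF2, the gene of SREBP2, differed by −0.21 ± 0.17 (adjusted p = 0.544), and SREBF1 by 0.06 ± 0.19 (adjusted p = 0.922).

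Set along the pathway, HF over the 3 lines lowered HMGCS1 and IDI1 among the mevalonate enzymes, while FDPS did not pass. Of 12 sterol enzymes tested 2 were lower (MSMO1 and NSDHL). Enzymes that did not pass included PMVK at 0.09 ± 0.16, LSS at −0.23 ± 0.14, EBP at −0.33 ± 0.16 and SC5D at 0.21 ± 0.15. Of 8 genes of the isoprenoid branch 0 passed, and of 13 fatty acid synthesis genes 0 passed. CYP51A1, which acts between lanosterol and MSMO1, had 1 count in the 45 libraries together and could not be tested. In the GENCODE 29 annotation 79.4% of its exon bases also lie in exons of other genes on the same strand, and the part of that in its count was not tested. HSD17B7, the C4 ketone reductase after NSDHL, had 32 counts in all and was not tested either.

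**Figure D3:**
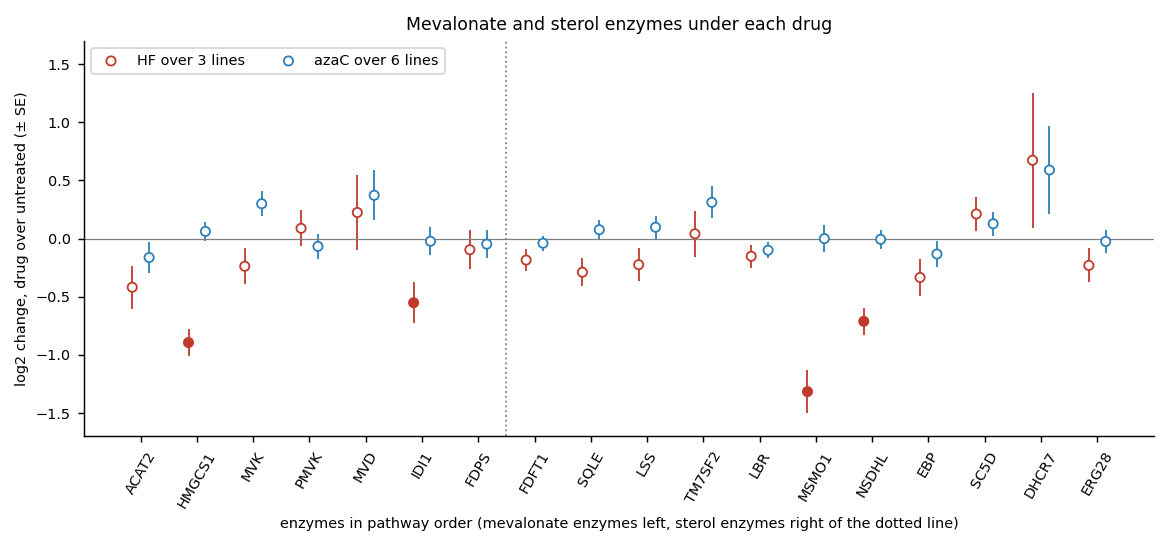
Log2 change over lines of mevalonate and sterol enzymes in pathway order, with HF averaged over 3 lines and azaC over 6, bars for 1 SE and filled points for adjusted p under 0.05. With HF the dips are at HMGCS1 (−0.89), IDI1 (−0.55), MSMO1 (−1.32) and NSDHL (−0.71), while no enzyme shown passed with azaC.

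azaC left the members without a call in every line. Of the 8, 0 passed in RNF25 KO cells, where 0.469% of all tested genes did, and 0 in eS31 K113R cells, where 0.515% did. In ZNF598 KO and AAVS1 cells 0 passed, against 0.117% of all genes in each. In GCN2 KO and RNF25 GCN2 DKO cells 0 passed, as did 0% of all genes. At an unadjusted p under 0.05 no member passed in any of the 6 lines. At that threshold 290 (RNF25 GCN2 DKO) to 1031 (RNF25 KO) of all 11078 tested genes passed per line. Averaged over 6 lines, where 1.14% of all genes passed, the members' log2 differences lay between −0.05 for FDPS and 0.16 for INSIG1. The 95% intervals over 6 lines were −0.10 to 0.22 for HMGCS1, −0.24 to 0.24 for MSMO1 and −0.17 to 0.16 for NSDHL. The fall of each of these genes with HF, averaged over 3 lines, lay outside its interval. The eS31 K113R, ZNF598 KO and RNF25 GCN2 DKO cells in that azaC average had no HF group. Over the 3 lines that also had HF, 0 of 8 passed with azaC, against 0.569% of all genes. The members' log2 differences with azaC over those 3 lines lay between −0.255 and 0.0886. Of the other listed genes, only LPIN1, a phosphatidate phosphatase of lipid synthesis, passed over 6 lines, at 0.49 (adjusted p = 0.046), a call lost in 31 of 43 alternatives.

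Library by library, the azaC and untreated values of RNF25 KO, GCN2 KO and AAVS1 cells covered much the same range. HMGCS1 had 143 to 341 CPM with a median of 256 in the 9 azaC libraries, against 162 to 359.9 CPM with a median of 244 in the 9 untreated libraries. MSMO1 had 53.0 to 118 CPM with a median of 75.1 with azaC, against 42.6 to 115 CPM with a median of 73.6 untreated. NSDHL had 62.7 to 102 CPM with a median of 90.9 with azaC, against 61.6 to 109.7 CPM with a median of 78.4 untreated. In all 3 genes the azaC and untreated ranges overlapped over most of their span. INSIG1 had a narrower range with azaC, at 37.1 to 65.1 CPM, against 21.7 to 76.2 CPM untreated.

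The highest group means of MSMO1, SQLE and INSIG1 were in RNF25 GCN2 DKO cells with azaC. There INSIG1 had 76.4, 73.4 and 68.1 CPM with azaC, against 29.2, 22.1 and 75.7 CPM untreated. Untreated replicate 3 lay within the azaC range and the other 2 untreated libraries far below it. The log2 difference was 0.79 ± 0.40 (adjusted p = 1). It was 1.51 without untreated replicate 3, the highest untreated library, whose removal was bound to widen the difference and adds no support. MSMO1 had 84.4, 108 and 115 CPM with azaC, against 59.0, 45.2 and 111 CPM untreated, a difference of 0.52 ± 0.29 (adjusted p = 1). Tests of the azaC response between lines gave 0 of 8 members in all 6 comparisons. The share of all genes that passed was 0% for RNF25 KO and for ZNF598 KO minus AAVS1, 0.00903% for GCN2 KO and for eS31 K113R minus AAVS1, 0.0451% for RNF25 GCN2 DKO minus AAVS1 and 0.117% for RNF25 GCN2 DKO minus RNF25 KO.

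The drugs were also compared with each other, since both were set against the same untreated libraries above. HMGCS1 was higher with azaC than with HF in RNF25 KO cells, at 216, 143 and 266 CPM with azaC and 78.4, 95.8 and 129 CPM with HF (log2 1.04 ± 0.20, adjusted p = 0.00552). It was higher in AAVS1 cells as well, at 318, 330.2 and 341 CPM with azaC and 152, 155 and 173 CPM with HF (1.04 ± 0.19, adjusted p = 0.00122). MSMO1 was higher with azaC in all 3 lines, by 1.23 ± 0.31 in RNF25 KO (adjusted p = 0.0447), 1.29 ± 0.31 in GCN2 KO (adjusted p = 0.0217) and 1.58 ± 0.32 in AAVS1 (adjusted p = 0.00366). NSDHL was higher with azaC in RNF25 KO cells (0.96 ± 0.20, adjusted p = 0.0109). In total 3 members passed in RNF25 KO, 1 in GCN2 KO and 2 in AAVS1, against 0.731%, 1.07% and 0.993% of all genes. In AAVS1 the fit with the replicate number as a block added INSIG1 (1.57, adjusted p = 0.00888) and NSDHL (0.72, adjusted p = 0.0207), 4 members in all. The share of all genes passing in that fit was not counted.

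Several of these calls between drugs depended on 1 library. In RNF25 KO no member passed in a fit to the groups compared only, nor without HF replicate 1 or without HF replicate 2, with adjusted p of 0.061 and 0.0572 for HMGCS1, 0.136 and 0.285 for MSMO1, and 0.0736 and 0.0961 for NSDHL. MSMO1 in RNF25 KO was also lost without azaC replicate 2 or 3 (adjusted p of 0.256 and 0.105). In GCN2 KO, MSMO1 did not pass without azaC replicate 3, HF replicate 1 or HF replicate 2 (0.156, 0.13 and 0.16). In AAVS1, MSMO1 did not pass without HF replicate 2 (0.0818), while HMGCS1 passed with any library left out. Of the other listed genes, ACSL3, a fatty acyl-CoA synthetase, was lower with azaC than with HF in GCN2 KO cells (−0.86, adjusted p = 0.0229), a call lost in 5 of 12 alternatives.

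Between untreated lines, every HMGCS1 value of the 5 edited lines lay below all 3 of AAVS1. RNF25 KO cells had 194, 162 and 282 CPM, GCN2 KO cells 241, 209 and 244 CPM and RNF25 GCN2 DKO cells 190.01, 168 and 269.9 CPM. ZNF598 KO cells had 241, 169 and 225 CPM and eS31 K113R cells 228, 226 and 304 CPM, against 334, 359.9 and 304 CPM in AAVS1 cells. The highest eS31 K113R library was just below the lowest AAVS1 library. The log2 differences from AAVS1 were −0.65 ± 0.19 in RNF25 KO, −0.52 ± 0.19 in GCN2 KO, −0.67 ± 0.19 in RNF25 GCN2 DKO, −0.65 ± 0.19 in ZNF598 KO and −0.40 ± 0.19 in eS31 K113R. None passed over all genes (adjusted p = 0.0839, 0.258, 0.0691, 0.0982 and 0.405). In the fit with the replicate number as a block, 3 did: RNF25 KO at −0.68 (adjusted p = 0.00663), RNF25 GCN2 DKO at −0.70 (adjusted p = 0.00489) and ZNF598 KO at −0.67 (adjusted p = 0.0116). Leaving out replicate 3 of the line also gave a call in RNF25 KO (−0.90, adjusted p = 0.0126) and RNF25 GCN2 DKO (−0.90, adjusted p = 0.0152). Replicate 3 was the highest HMGCS1 library of both lines, so its removal was bound to widen the difference and adds no support. All 5 comparisons share the same 3 AAVS1 libraries, so they are not separate measurements of the AAVS1 level.

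The other lines also lay below AAVS1 with azaC, but GCN2 KO did not with HF. With azaC, HMGCS1 ran from 143 to 279.7 CPM in the 15 libraries of the other lines, all below the 318, 330.2 and 341 CPM of AAVS1 cells. The difference was −0.67 ± 0.19 in RNF25 KO (adjusted p = 0.0508) and −0.62 ± 0.19 in ZNF598 KO (adjusted p = 0.176). With HF, HMGCS1 was −0.66 ± 0.20 in RNF25 KO against AAVS1 (adjusted p = 0.0949, and −0.67 with adjusted p = 0.0131 in the fit with a replicate block). Without replicate 3 of RNF25 KO the difference was −0.89 with azaC (adjusted p = 0.0114) and −0.88 with HF (adjusted p = 0.0271). That replicate was the highest of its group under both drugs, so a wider difference without it was bound to follow. GCN2 KO and AAVS1 cells did not separate with HF, at −0.02 ± 0.20 and a 95% interval of −0.41 to 0.37.

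Across line comparisons the members gave few calls. Of the 8, 0 passed in untreated RNF25 KO, GCN2 KO, RNF25 GCN2 DKO and ZNF598 KO cells against AAVS1, where 1.62%, 1.05%, 1.42% and 0.93% of all genes passed. In untreated eS31 K113R cells 1 passed (NSDHL), against 2.87% of all genes. With azaC, 0 passed in RNF25 KO, GCN2 KO, RNF25 GCN2 DKO and ZNF598 KO cells, against 2.26%, 1.25%, 1.55% and 0.677% of all genes, and 1 (NSDHL) in eS31 K113R cells, against 3.58%. With HF, 0 passed in RNF25 KO cells, against 1.53% of all genes, and 1 (FDFT1) in GCN2 KO cells, against 3.74%. These counts are from the fit without a replicate block. With it, HMGCS1 passed in untreated RNF25 KO, RNF25 GCN2 DKO and ZNF598 KO cells. HMGCS1 also passed in RNF25 KO cells with HF or azaC and in ZNF598 KO cells with azaC. FDFT1 then passed in GCN2 KO cells untreated and with azaC. The share of all genes passing with the block was not counted. Untreated RNF25 GCN2 DKO and RNF25 KO cells differed in 0 members and in 0% of all genes, with HMGCS1 at −0.03 ± 0.19 and IDI1 at −0.56 ± 0.30 between them. Of the listed genes outside the members, NUS1, a subunit of the dolichol-making prenyltransferase, was lower in untreated RNF25 GCN2 DKO cells (−0.93, adjusted p = 0.0487, lost in 8 of 12 alternatives). MBTPS1, the first protease that cuts SREBP2, was lower in ZNF598 KO cells with azaC (−0.76, adjusted p = 0.0432, lost in 9 of 12).

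NSDHL was low in eS31 K113R cells whether or not azaC was given. It had 41.8, 33.9 and 32.0 CPM in untreated eS31 K113R cells, against 61.6, 90.7 and 109.7 CPM in untreated AAVS1 cells. With azaC it had 30.7, 27.6 and 45.9 CPM in eS31 K113R cells, against 84.5, 102 and 97.6 CPM in AAVS1 cells. No eS31 K113R library reached the AAVS1 range in either setting. NSDHL was lower, with a log2 difference of −1.29 ± 0.21 untreated (adjusted p = 4.5e-05) and −1.45 ± 0.21 with azaC (adjusted p = 5.68e-06). Among the untreated libraries of this line, replicates 2 and 3 carry titles naming eS32_K223R in place of eS31 K113R and were placed by the column name in their descriptions. With replicate 1 alone the untreated difference was −1.07 (adjusted p = 0.0879), and in a fit to the groups compared only it was −1.30 (adjusted p = 0.0637).

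Genes of the X chromosome moved with NSDHL. Of 415 tested X-linked genes, 147 (35.4%) were lower in untreated eS31 K113R cells than in AAVS1 cells, with a median log2 difference of −0.87, against 40 of 10625 autosomal genes (0.376%) with a median of 0.03. With azaC 147 X-linked genes were lower again, with a median of −0.87. EBP, the X-linked sterol isomerase, differed by −1.05 untreated (adjusted p = 0.0264) and −1.01 with azaC (adjusted p = 0.0295). MBTPS2, the X-linked protease that frees SREBP2 in the Golgi, differed by −1.27 untreated (adjusted p = 0.0108). The untreated EBP call was lost without AAVS1 replicate 1 or 3 or eS31 K113R replicate 2, and the MBTPS2 call without AAVS1 replicate 2 or eS31 K113R replicate 1 or 2. Both were also lost with only the untreated eS31 K113R library titled so (EBP −0.65, adjusted p = 0.626, and MBTPS2 −1.76, adjusted p = 0.082) and in a fit to the groups compared only (adjusted p of 0.296 and 0.198). With azaC the EBP call was lost without any 1 of the 3 AAVS1 libraries or eS31 K113R replicate 2. The part of the chromosome in the NSDHL value was not tested. X-linked genes had a smaller shift in GCN2 KO cells, at a median of −0.32 untreated, where NSDHL differed by −0.29 ± 0.20 (adjusted p = 0.734).

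**Figure D4:**
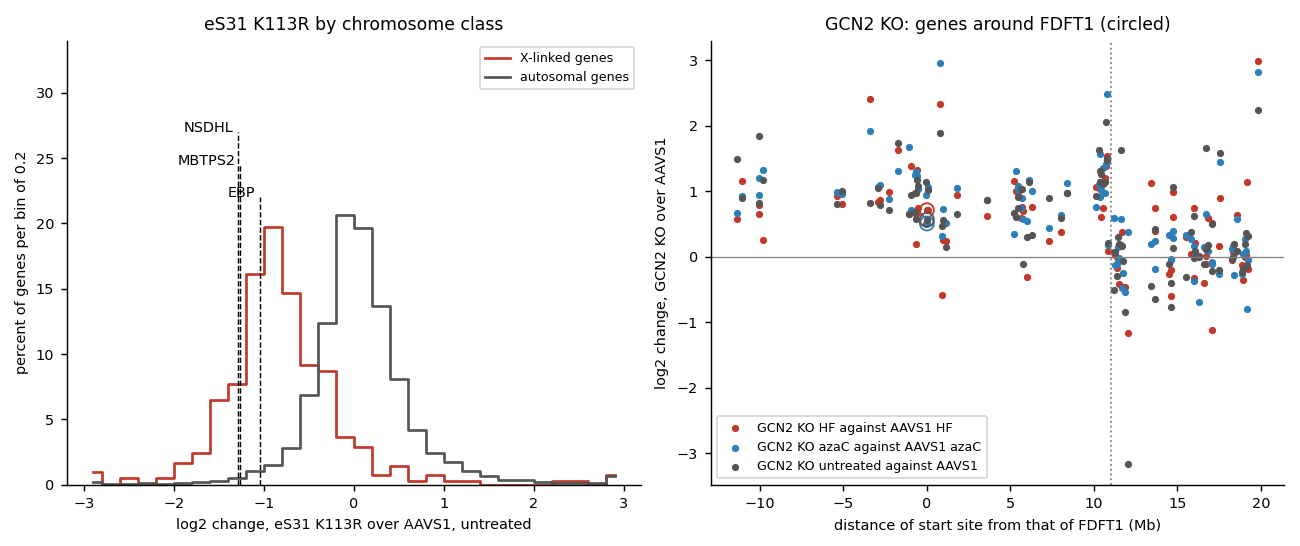
Left, percent of X-linked and of autosomal genes by log2 difference of untreated eS31 K113R over AAVS1 cells, with dashed lines at NSDHL (−1.29), MBTPS2 (−1.27) and EBP (−1.05), all within the X-linked curve. Right, log2 difference of GCN2 KO over AAVS1 cells under HF, azaC and no treatment for genes by distance in Mb from the FDFT1 start (FDFT1 circled, dotted line at 11 Mb), where the 51 genes left of the line have a median of 0.94 untreated.

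FDFT1 was high in GCN2 KO cells under all 3 treatments. It had 374, 367 and 436 CPM in HF-treated GCN2 KO cells, against 223.4, 236 and 259 CPM in HF-treated AAVS1 cells. With azaC it had 414, 466 and 393 CPM in GCN2 KO cells, against 288, 313 and 292 CPM in AAVS1 cells. Untreated it had 453, 419 and 416 CPM in GCN2 KO cells, against 293, 269.7 and 307 CPM in AAVS1 cells. All 9 GCN2 KO libraries lay above every library of the other 5 lines, which reached 313 CPM at most. FDFT1 was higher by 0.71 ± 0.16 with HF (adjusted p = 0.00333), and the differences of 0.51 ± 0.16 with azaC and 0.57 ± 0.16 untreated did not pass (adjusted p = 0.117 and 0.0663). In the fit with a replicate block the untreated value was 0.57 (adjusted p = 0.0212).

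FDFT1 lies on the short arm of chromosome 8, and its neighbours there were higher too. Of the 51 tested genes from the end of that arm to 11 Mb beyond the FDFT1 start, 50 were above 0 in untreated GCN2 KO cells against AAVS1, with a median log2 difference of 0.94. The medians were 0.84 with HF and 1.02 with azaC. The 43 genes from there to 20 Mb had medians of 0.03 with HF, 0.09 with azaC and 0.07 untreated. The limit of 11 Mb was read from these same values. FDFT1 itself, at 0.57 untreated, lay below the lower quartile of 0.68 of the 51 genes. RNF25 GCN2 DKO cells did not show this, with a median of 0.11 over the 20 genes within 5 Mb of FDFT1, where GCN2 KO cells had 0.84. The part of the neighbourhood in the FDFT1 value was not tested.

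Ordered over the 15 groups, the members split by how closely they followed each other. The mean standardised level of the 8 members was lowest in RNF25 KO cells with HF (−1.67), AAVS1 cells with HF (−0.94) and GCN2 KO cells with HF (−0.31). It was highest in AAVS1 cells with azaC and RNF25 GCN2 DKO cells with azaC (0.75 each), then in untreated AAVS1 cells (0.63). Across the 15 group means, which share lines and control libraries, the Pearson correlation with this mean was 0.95 for INSIG1, 0.89 for HMGCS1, 0.87 for MSMO1, 0.77 for SQLE and 0.73 for IDI1, and 0.53 for NSDHL, 0.38 for FDFT1 and 0.14 for FDPS. Outside the 8, the closest genes included ACTG1 (0.91), FASTKD5 (0.90), BAG3 (0.88), HSPE1 (0.87), and MTMR4, THAP11, NOP16 and WRB (0.86 each). None of the genes named here is in the pathway lists. These correlations are a description of 15 group means, and each member is itself part of the mean it was set against.

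For single members the order of groups was as follows. HMGCS1 ran from 333 ± 27.8 CPM in untreated AAVS1 cells (SD, n = 3) and 329.7 ± 11.6 CPM in AAVS1 cells with azaC down to 101 ± 25.8 CPM in RNF25 KO cells with HF. Between these, the 10 groups without HF in the other 5 lines lay between 208 and 263 CPM, each within 1 SD of its neighbour in the order. MSMO1 ran from 102 ± 16.1 CPM in RNF25 GCN2 DKO cells with azaC to 25.2 ± 7.93 CPM in AAVS1 cells with HF, and its 3 HF groups, at 25.2 to 35.8 CPM, stood below all others. INSIG1 ran from 72.6 ± 4.18 CPM in RNF25 GCN2 DKO cells with azaC to 14.9 ± 8.12 CPM in RNF25 KO cells with HF, and the untreated RNF25 KO, GCN2 KO, RNF25 GCN2 DKO and eS31 K113R groups between had SDs of 23.5 to 29.1 CPM. SQLE ran from 136 ± 2.72 CPM in RNF25 GCN2 DKO cells with azaC to 77.4 ± 9.61 CPM in RNF25 KO cells with HF. IDI1 ran from 63.5 ± 2.35 CPM in untreated AAVS1 cells to 30.4 ± 4.28 CPM in RNF25 KO cells with HF. FDPS ran from 269 ± 18.99 CPM in RNF25 KO cells with azaC to 182 ± 26.5 CPM in ZNF598 KO cells with azaC, and its neighbouring groups lay within their spread.

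Levels were also divided by the length of all annotated exon bases of the gene, which can exceed the length of the transcripts present. On that scale HMGCS1 was the highest member in untreated AAVS1 cells at 70.8 ± 5.92 CPM per kb. FDFT1 followed at 55.7 ± 3.62 and FDPS at 49.8 ± 28.9 CPM per kb, and the low replicate 2 of FDPS is among its 3 libraries. INSIG1 at 12.9 ± 2.69 and IDI1 at 14.6 ± 0.54 CPM per kb were lowest there. Over all 45 libraries FDPS had the highest median, at 56.6 CPM per kb against 48.4 for HMGCS1, so the order depended on the groups taken. Part of the exon bases of HMGCS1 (14.95%), IDI1 (14.8%), FDPS (18.6%) and FDFT1 (4.17%) overlap a gene on the opposite strand. Whether counting used the strand is not given in the sources used here, so reads from those genes cannot be told apart from the members' own there. FDPS also has 8 pseudogenes in the table, with 70 counts in all against 14752 for FDPS.

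Libraries with the same replicate number deviated together in several members. Replicate 3 was the highest of its group for MSMO1 in 13 of 15 groups, for FDPS in 12 and for IDI1 in 11. Replicate 2 was the lowest for FDPS in 11 groups, for MSMO1 in 10, and for HMGCS1 and IDI1 in 9 each. The mean log2 deviation from the group mean was 0.33 for MSMO1 and 0.33 for INSIG1 in replicate 3, and −0.26 for MSMO1 and −0.33 for FDPS in replicate 2. FDFT1 and SQLE showed no such order, with mean deviations between −0.06 and 0.06. Every group holds each number once.

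**Figure D5:**
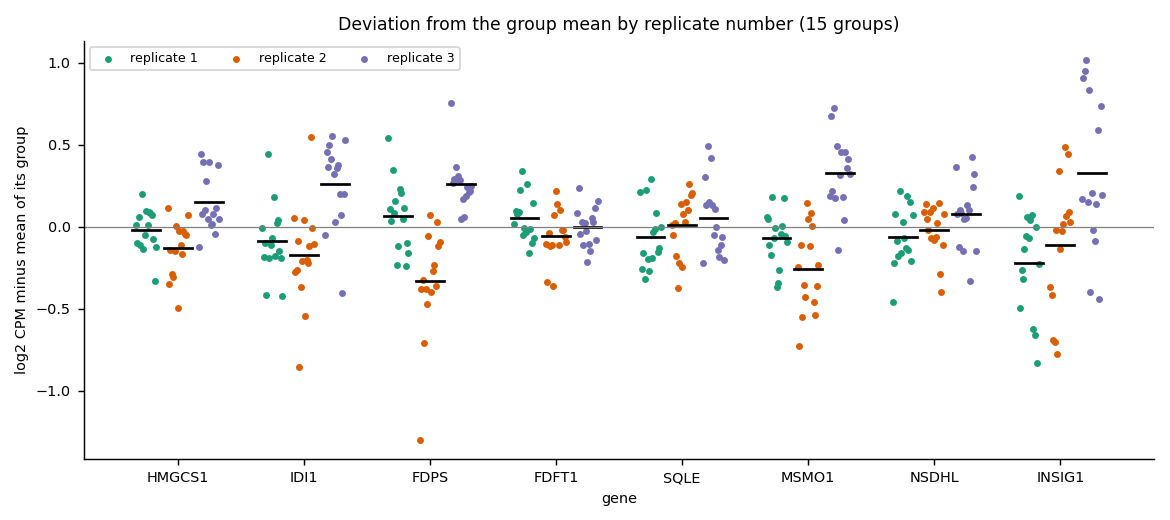
Log2 deviation of each library from its group mean for the 8 genes, by replicate number, with 15 groups per number and a bar at the mean. The replicate 3 bars of MSMO1, INSIG1, IDI1 and FDPS stand at 0.26 to 0.33, while all bars of FDFT1 and SQLE lie between −0.06 and 0.06.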

How the data were processed

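HAP1 cells were profiled by polyA RNA-seq in 45 libraries, 3 in each of 15 groups. Per the labels' protocols, a Maxwell RSC instrument purified the RNA and a CORALL mRNA-Seq V2 kit gave the libraries. The deposited table holds raw counts per gene. Per the submitters' processing notes, the authors used STAR 2.7.10b, HTSeq 0.9.1 and GRCh38. What is not given in the sources used here is the annotation release, how strand was handled and whether molecular identifiers were collapsed. Entries with no symbol (2862, holding 0.0286% of counts) were left out of the text. The untreated eS31 K113R replicates 2 and 3 are titled eS32_K223R and were placed by the column name in their descriptions.

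All 45 libraries entered 1 fit with 15 group means in edgeR 4.0.16 (R 4.3.3): TMM scaling, filterByExpr with a minimum count of 10, and quasi-likelihood F tests, two-sided, with Benjamini-Hochberg adjustment at 0.05 within each comparison. Of 60676 genes 27878 had a count and 11078 were tested, with 30 residual degrees of freedom and a common biological coefficient of variation of 22.1%. Totals of 1135498 to 2478875 counts limit precision for members with few counts, such as INSIG1. There were 36 comparisons, 7 of them (lines against AAVS1 under a drug) added after seeing the data. The script was tested on simulated data. No pair of replicates agreed within sampling noise (over 45 pairs, chi-square per degree of freedom was at least 3.00). It reached 13.9 and 18.1 in the pairs with untreated AAVS1 replicate 2, and 17.95 and 14.7 in those with RNF25 KO azaC replicate 2. In untreated AAVS1 replicate 2, 2030 genes lay over 1 log2 from the mean of the other 2, against a library median of 845. That library is in the reference of every untreated comparison with AAVS1 and of both drugs in AAVS1 cells. The members and lists were chosen with earlier results of these data known. The genes named are the 8 members, SREBF2 and SREBF1, listed genes that passed, genes among the 10 most like the members over the groups, and the edited genes, and some genes that meet this rule are not reported here. Other enzymes were named after their values were seen, to show the pathway order.

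Replicate numbers come from the labels. Same-numbered libraries deviated together, with every correlation of their deviations over 0.1, in 14 of 25 comparisons of 2 groups: azaC in RNF25 GCN2 DKO, ZNF598 KO, eS31 K113R and AAVS1, HF in AAVS1, all 6 between untreated lines, azaC against HF in AAVS1, and both HF-treated lines against HF-treated AAVS1. These were taken as paired, but the main fit holds no term for the replicate number. Over 315 same-numbered pairs the median correlation was 0.15, with a range from −0.25 to 0.46.

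Alternatives were DESeq2 1.42.0 and its size factors, limma-voom (limma 3.58.1), no filter on low counts, the replicate block, a fit to the groups compared only, each library left out, the single untreated eS31 K113R library titled so, and levels without TMM scaling. The replicate block is an offset per replicate number, shared by all 15 groups, and does not match libraries within a comparison. Promoter windows and gene positions came from RefSeq (GRCh38.p14) and GENCODE 29.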

Additional observations from a re-analysis of the deposited data

How the results depend on the processing

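Over 36 comparisons and 538 alternatives, the count of members passing stayed within 1.5 times in 503. Of 27 comparisons with 0 members, 19 gave 0 in every alternative, the azaC comparisons with untreated cells and all tests of responses between lines among them. The 20 calls on members were tried in 301 alternatives, of which 262 passed, 39 did not and 0 turned in direction. HMGCS1, MSMO1, INSIG1 and NSDHL with HF over 3 lines passed in all 24 alternatives each, as did HMGCS1 and MSMO1 with HF in AAVS1 in all 12. Without TMM scaling 0 of 120 member levels moved by 1 SD.

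With libraries left out in turn, the count ran from 1 to 4 for HF in RNF25 KO, 0 to 3 for azaC against HF in RNF25 KO, 0 to 1 in GCN2 KO and 1 to 2 in AAVS1. It ran from 0 to 1 for untreated RNF25 KO and untreated RNF25 GCN2 DKO against AAVS1, and for RNF25 KO against AAVS1 with azaC and with HF. With the replicate block, 1 member passed in untreated RNF25 KO, GCN2 KO, RNF25 GCN2 DKO and ZNF598 KO against AAVS1, in RNF25 KO, GCN2 KO and ZNF598 KO against AAVS1 with azaC, and in RNF25 KO against AAVS1 with HF, each against 0 without the block. The block gave 2 in place of 1 for azaC against HF in GCN2 KO and 4 in place of 2 in AAVS1. DESeq2 gave 1 for untreated GCN2 KO, untreated RNF25 GCN2 DKO and RNF25 KO with azaC, and 2 and 4 for azaC against HF in GCN2 KO and AAVS1. limma-voom gave 1 for untreated RNF25 KO, untreated RNF25 GCN2 DKO and RNF25 KO with azaC. A fit to the groups compared only gave 0 for untreated eS31 K113R, 0 for azaC against HF in RNF25 KO and 2 in GCN2 KO, and the single titled library gave 0 for untreated eS31 K113R. The share of all genes passing was not counted in these alternatives, so a changed count may not be particular to the members. The causes were not tested.

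Where the numbers do not pair the libraries, the replicate block gave calls for IDI1 with HF in RNF25 KO (−1.02, adjusted p = 0.0106), HMGCS1 with azaC in RNF25 KO (−0.69, adjusted p = 0.00395) and ZNF598 KO (−0.63, adjusted p = 0.0268) against AAVS1, FDFT1 with azaC in GCN2 KO against AAVS1 (0.51, adjusted p = 0.0416), HMGCS1 for azaC against HF in GCN2 KO (0.68, adjusted p = 0.00967) and INSIG1 in RNF25 KO (1.51, adjusted p = 0.0159). The block ended no member call. INSIG1, with 12 to 130 counts per library, is the member whose values depth limits most.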
